A study of Mus musculus with 12 samples.

Results

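The syndecans and glypicans, the 2 families of cell-surface heparan sulfate proteoglycans, were followed in dermal papilla (DP) cells of mice with and without FGF receptors 1 and 2 in the DP. The 10 genes Sdc1 to Sdc4 and Gpc1 to Gpc6 were taken by gene name from the tables of normalised reads, and all 10 were listed among the 15209 genes at P14 and the 15334 genes at P16. Sequenced RNA came from YFP-labelled DP cells that were FACS sorted from dissociated skin in anagen, with 3 wild type control and 3 Fgfr1/Fgfr2 double mutant (dMF1/2) libraries at postnatal day 14 (P14) and as many at P16, 12 libraries in all. The dMF1/2 mice carried a Cor-cre allele and floxed alleles on both copies of Fgfr1 and of Fgfr2. The study's methods describe controls either as Cor-cre mice with a single floxed copy of each receptor gene or as mice without Cre and with both copies floxed. Cor-cre drives Cre from the Corin gene in the DP, and it also turned on the YFP reporter used for the sort, so the sorted cells had carried active Cre. Which of the control genotypes a given control library had is not stated in the labels. Of the described controls, only the Cor-cre mice with a single floxed copy of each receptor gene could give YFP-positive cells. The genotype comparisons below would then set cells with both copies floxed against cells with a single floxed copy. The study describes each transcriptome as that of a single mouse.

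The DP is a cluster of mesenchymal cells at the base of the hair follicle that signals to the surrounding matrix keratinocytes. FGF ligands bind their receptor tyrosine kinases together with a heparan sulfate chain, and syndecans and glypicans are the membrane proteins that carry most such chains at the cell surface. Syndecans span the membrane and have a short cytoplasmic tail, whereas glypicans are held by a glycosylphosphatidylinositol anchor. The same chains also bind Wnt, Hedgehog and BMP ligands, and both families can be released from the membrane by proteases, phospholipases or related enzymes.

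Library depth ran from 19302358 to 29860750 reads over the listed genes. The summed level of 16 dermal papilla markers lay between 51529 and 172666 reads per library (recovered reads rescaled over the 12 libraries, called rescaled reads below), against 332 to 945 for the 13 keratinocyte markers listed in both tables. The 12 markers of dermal fibroblasts and sheath, which are mesenchymal like the DP, summed to 108780 to 245332, and in P16 control libraries they were at 180308 to 245332 against 51529 to 82505 for the papilla list. The 7 melanocyte markers in both tables summed to 518 to 909, of which Mitf made up 446 to 838, while Dct, Tyrp1, Mlana and Sox10 had means below 10. Replicate 1 of both P14 groups stood apart from the other libraries of its group, and the fits of members that use P14 were therefore repeated without these 2 libraries. The other gene lists at P14 are given mainly with them. The targeted gene Fgfr1 was at 12420, 8426 and 9884 rescaled reads in P16 control and 7889, 6162 and 7460 in P16 dMF1/2 libraries, so the groups did not overlap. Its log2 difference was -0.50 (limma's adjusted p = 0.130, and 0.0109 with the replicate number as a block). At P14 it was -0.40 (adjusted p = 0.501). Fgfr2 differed by -0.11 at P14 and -0.01 at P16 on the log2 scale (adjusted p = 0.974 and 0.978). Counts over whole genes include reads from exons that Cre does not delete, so they do not measure how much of either gene was deleted.

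Levels of the co-receptors were compared with each other per length, as rescaled reads per kilobase of the exons of each gene. Gpc3, the X-linked glypican that is mutated in an overgrowth syndrome and restrains Hedgehog signaling, had the highest level in 3 of the 4 groups, with 3977 ± 901 reads per kb in P14 control, 3850 ± 583 in P14 dMF1/2 and 3509 ± 314 in P16 dMF1/2 libraries (mean ± SD, n = 3 here and below). In P16 control libraries Sdc4, the syndecan of focal adhesions, had the highest mean, 3757 ± 1544 per kb, against 2819 ± 509 for Gpc3, and the ranges of these 2 genes overlapped. Sdc2, a syndecan of mesenchymal cells, lay between 1410 ± 147 and 1707 ± 40.8 per kb in the 4 groups, and Gpc4, the neighbour of Gpc3 on the X chromosome, between 1221 ± 78.5 and 1402 ± 12.4. The mean of Sdc1 was 782 ± 91.3 per kb in P16 control libraries and between 1054 and 1114 in the other groups.

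Gpc6, Gpc1 and Sdc3 formed the middle of the order. In P14 control libraries they were at 597 ± 95.9, 321 ± 100.0 and 272 ± 18.9 per kb, and Gpc1 and Sdc3 overlapped. In P16 control libraries Gpc1 ranked above Gpc6, with 553 ± 177 against 267 ± 51.3 per kb and no overlap. In P16 dMF1/2 libraries Gpc6 was above Gpc1 again, with 404 ± 99.1 against 210 ± 60.5 per kb. Gpc5 and Gpc2, the latter best known from the developing nervous system, had the lowest levels in every group, with means of 0.889 to 15.6 and 1.38 to 2.30 per kb. A protein-coding gene annotated over Gpc2 on the same strand, Gm43720, was not analysed here, and its effect on the Gpc2 count was not tested. Gpc2 had 3 to 15 reads per library and a mean below 10 on both days, so it was not tested. The other 9 members were tested in every comparison.

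**Figure D1:**
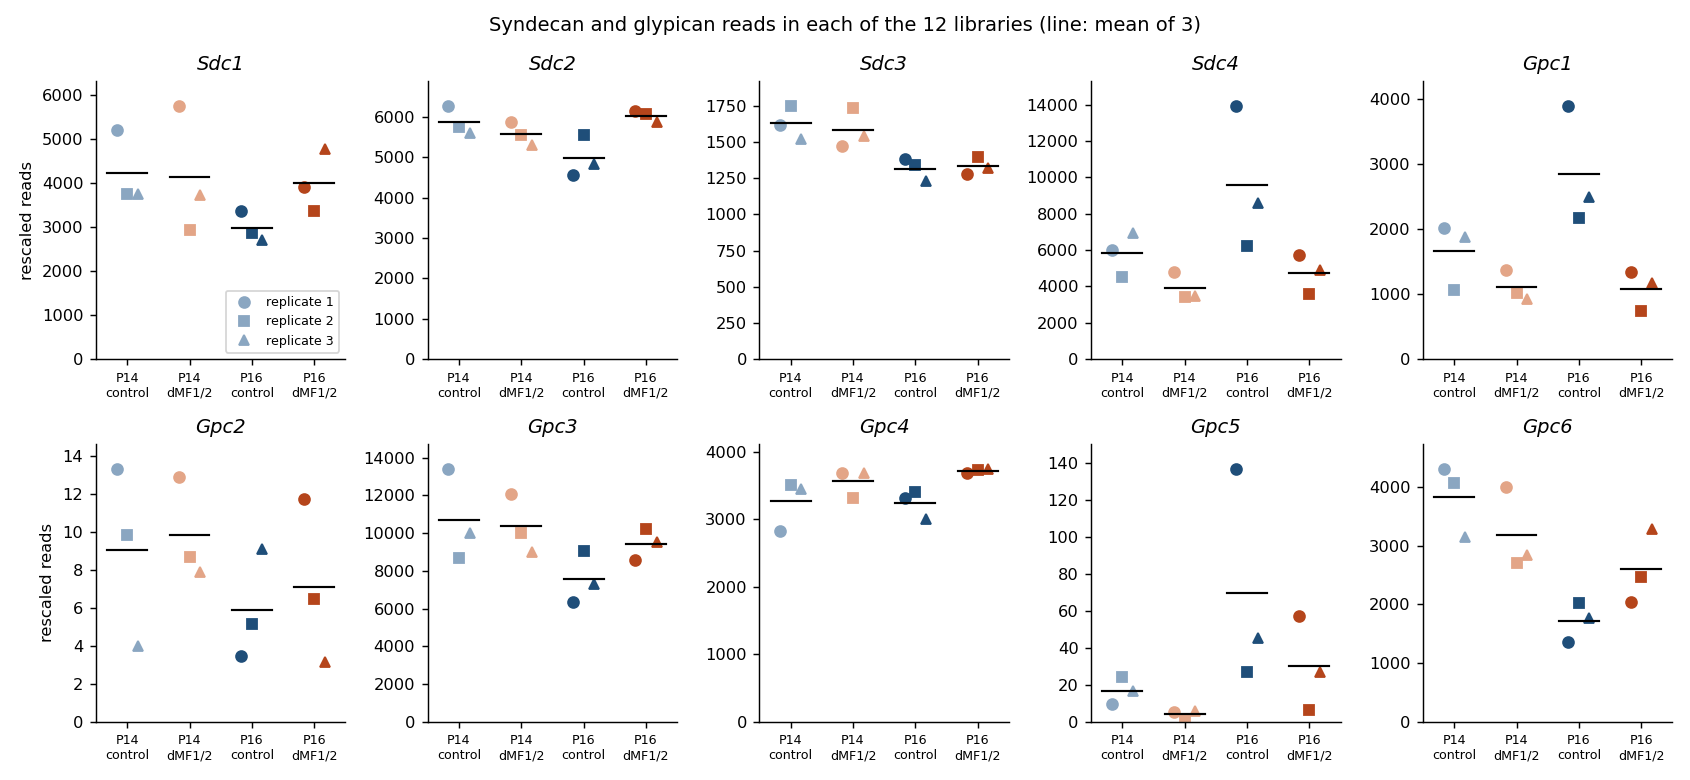
Rescaled reads (vertical axis, from 0) of the 10 co-receptor genes in each of the 12 libraries, by group, with markers for the replicate number and a line at the mean of 3. The 3 P16 control libraries held the highest Gpc1 and the lowest Gpc6 of all 12, and Gpc2 stayed at or below 13.3 rescaled reads.

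Sdc4, Gpc3 and Gpc5 are shown here with the sequence before their start sites because they are the member with the largest syndecan difference, the member with the highest level and the member with the widest range of group means. RefSeq promoter entries (GRCm38.p6) were matched by symbol for 7 of the 10 members, namely Sdc1, Sdc3, Sdc4, Gpc2, Gpc3, Gpc4 and Gpc5. Each sequence is the 250 bases that end at the base before the RefSeq start site, written 5′ to 3′ on the strand of the gene. Capitals mark matches to the letters of a GC box, an ETS core or a TATA box on either strand and at any position. Whether any match works as such an element was not tested.
Sdc4: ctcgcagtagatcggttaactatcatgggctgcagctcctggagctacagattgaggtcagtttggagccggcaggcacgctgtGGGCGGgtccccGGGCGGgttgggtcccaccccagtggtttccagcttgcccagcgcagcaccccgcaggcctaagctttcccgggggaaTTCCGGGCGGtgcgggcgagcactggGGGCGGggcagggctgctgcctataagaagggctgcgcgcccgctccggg
Gpc3: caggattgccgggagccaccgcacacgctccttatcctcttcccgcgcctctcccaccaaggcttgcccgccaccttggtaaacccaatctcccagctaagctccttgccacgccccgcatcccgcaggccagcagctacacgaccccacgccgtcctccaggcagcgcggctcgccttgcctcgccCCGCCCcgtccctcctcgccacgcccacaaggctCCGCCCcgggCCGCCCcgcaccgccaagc
Gpc5: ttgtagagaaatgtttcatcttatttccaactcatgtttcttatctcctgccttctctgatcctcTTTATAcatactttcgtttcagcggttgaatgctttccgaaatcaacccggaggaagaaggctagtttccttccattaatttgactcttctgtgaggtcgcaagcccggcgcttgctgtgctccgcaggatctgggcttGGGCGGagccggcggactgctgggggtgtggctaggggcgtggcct
These windows lie at chr2:164443189-164443438 (minus strand), chrX:52613975-52614224 (minus strand) and chr14:115091965-115092214 (plus strand). The Sdc4 window lies upstream of the shorter annotated Sdc4 transcript and within an intron of the longer transcript (GENCODE). The GC box, searched as GGGCGG on both strands, was present in 7 of 7 members and in 32.7% of all 32851 promoter entries of this length. Its matches numbered 4 in Sdc4, 3 in Gpc3 and 1 in Gpc5. The ETS core CCGGAA was present in Sdc4 only among the 7, at 76 to 71 bases before the start, where it overlapped a GC box, and in 12% of all entries. TATAAA was present in Gpc5 only, on the reverse strand at 185 to 180 bases before the start, and in 12.4% of all entries. The letters CTTTGA of TCF/LEF sites, TGANTCA of AP-1 sites and the E-box CACGTG were in none of the 7 windows and in 13.8%, 6.75% and 6.02% of all entries. GC content was 68.0% in Sdc4, 71.6% in Gpc3 and 51.2% in Gpc5, against a median of 52.4% over all entries.

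The genotype comparison at P16, the later anagen day, showed lower Gpc1 in dMF1/2 DP cells. Gpc1 encodes glypican-1, a co-receptor that presents FGF ligands to their receptors. Its gene lies at chr1:92831645-92860779 on the plus strand (mm10). Gpc1 was at 3920, 2194 and 2504 normalised reads in the control libraries and at 1368, 747 and 1181 in the dMF1/2 libraries. Every dMF1/2 library was below every control library, with means of 1098 ± 319 and 2873 ± 920, a ratio of 0.382. Its log2 difference was -1.39 (SE 0.27, upper 95% bound -0.77), and limma's adjusted p was 0.0286. Gpc1 was the only member called, where 4.32% of all 13457 genes tested at P16 were called (2.18% higher and 2.14% lower in dMF1/2). The call was lost without control replicate 3 (adjusted p = 0.0781), dMF1/2 replicate 2 (0.0615) or dMF1/2 replicate 3 (0.0919), with log2 differences between -1.57 and -1.13 over all 16 alternatives. The protein-coding gene Ankmy1, which overlaps Gpc1 on the opposite strand, had 0.933 to 5.40 normalised reads in the P16 libraries. Antisense genes annotated over Gpc1 (Gm29480, Gm29481) and opposite-strand genes over Sdc3, Gpc3, Gpc5 and Gpc6 were not analysed here, and with the strand setting of the counting not given, their reads cannot be told apart from those of the members.

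Sdc4, whose product syndecan-4 joins integrins in focal adhesions and binds protein kinase C alpha through its tail, was lower in mean in the same libraries. It was at 14017, 6303 and 8610 normalised reads in the control and at 5814, 3611 and 4976 in the dMF1/2 libraries at P16. The groups did not overlap, and control replicate 1 was well above the other 2 control libraries. The log2 difference was -0.95 (SE 0.29, 95% interval -1.61 to -0.30) with limma's adjusted p = 0.110. With the replicate number as a block it was called (adjusted p = 0.00361), as it was by DESeq2 (0.00349) and without control replicate 2 (0.0418). Sdc4 was called in only that 1 of the 6 fits that leave out a P16 library. Over these 6 its log2 difference ran from -1.22 to -0.645, with limma's adjusted p up to 0.247.

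Gpc5, a glypican of the same subfamily as Gpc3, was at 138, 27.0 and 45.6 normalised reads in control and 58.3, 6.53 and 27.5 in dMF1/2 libraries at P16. These groups overlapped, and the control libraries were spread more widely than the means of the groups differed. The fitted log2 difference was -1.28 (SE 0.80) with limma's adjusted p = 0.458. With the block it was called (adjusted p = 0.0367). Without dMF1/2 replicate 2 the unblocked difference was -0.46, without control replicate 1 it was -0.63, and without dMF1/2 replicate 1 it was -1.95. In each of Gpc1, Sdc4 and Gpc5, replicate 1 was the highest library of both P16 groups, and the level in dMF1/2 was below that in control in 3 of 3 pairs of the same number.

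Most other members had higher means in dMF1/2 than in control libraries at P16, and none of these differences was called by limma without the block. Gpc6, a glypican that promotes Hedgehog signaling in growing bone, was at 1378, 2042 and 1773 normalised reads in control and 2070, 2491 and 3330 in dMF1/2 libraries. The lowest dMF1/2 library lay just above the highest control library. Fitted on the log2 scale, the difference was 0.59 (SE 0.20, limma's adjusted p = 0.141), and it was called with the block (adjusted p = 0.0244) and by DESeq2 (0.0390). Sdc1, the syndecan best known from epithelial and plasma cells, was at 3395, 2899 and 2715 normalised reads in control and 3976, 3398 and 4832 in dMF1/2 libraries, a log2 difference of 0.43 (SE 0.14, adjusted p = 0.143). Sdc2 was at 4583, 5607 and 4855 in control and 6234, 6132 and 5933 in dMF1/2 libraries, a log2 difference of 0.29 (SE 0.10, adjusted p = 0.149). Sdc2 did not overlap between the genotypes. For Sdc1 this depended on the scaling, since the lowest dMF1/2 library was just above the highest control library in normalised reads and just below it in rescaled reads (3363 against 3369).

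The X-linked neighbours Gpc3 and Gpc4 had differences in the same direction. Gpc4 was at 3335, 3432 and 3018 normalised reads in control and 3738, 3767 and 3787 in dMF1/2 libraries at P16, a log2 difference of 0.21 (SE 0.08, adjusted p = 0.208). Gpc3 was at 6416, 9159 and 7355 in control and 8690, 10343 and 9643 in dMF1/2 libraries, a log2 difference of 0.33 (SE 0.14, adjusted p = 0.248, and 0.0443 with the block in limma but 0.0502 with the block in edgeR), and a single control library overlapped the dMF1/2 range. Sdc3, the syndecan of neural tissue, did not differ detectably, with 1328 ± 82.0 normalised reads in control and 1349 ± 55.5 in dMF1/2 libraries and a 95% interval of the log2 difference from -0.17 to 0.21. Of the 9 tested members, 6 had groups that did not overlap at P16 in normalised reads (4 higher and 2 lower in dMF1/2), where this held for 24.5% of all tested genes (12.9% higher and 11.6% lower). In rescaled reads Sdc1 overlapped, which leaves 5 (3 higher and 2 lower). An exact permutation test of 3 against 3 libraries cannot give a p below 0.1, and these 6 members had that value (two-sided). With the block, limma called 5 members, Gpc1 and Sdc4 and Gpc5 lower and Gpc3 and Gpc6 higher, where it called 1403 genes in all against 582 without the block.

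**Figure D2:**
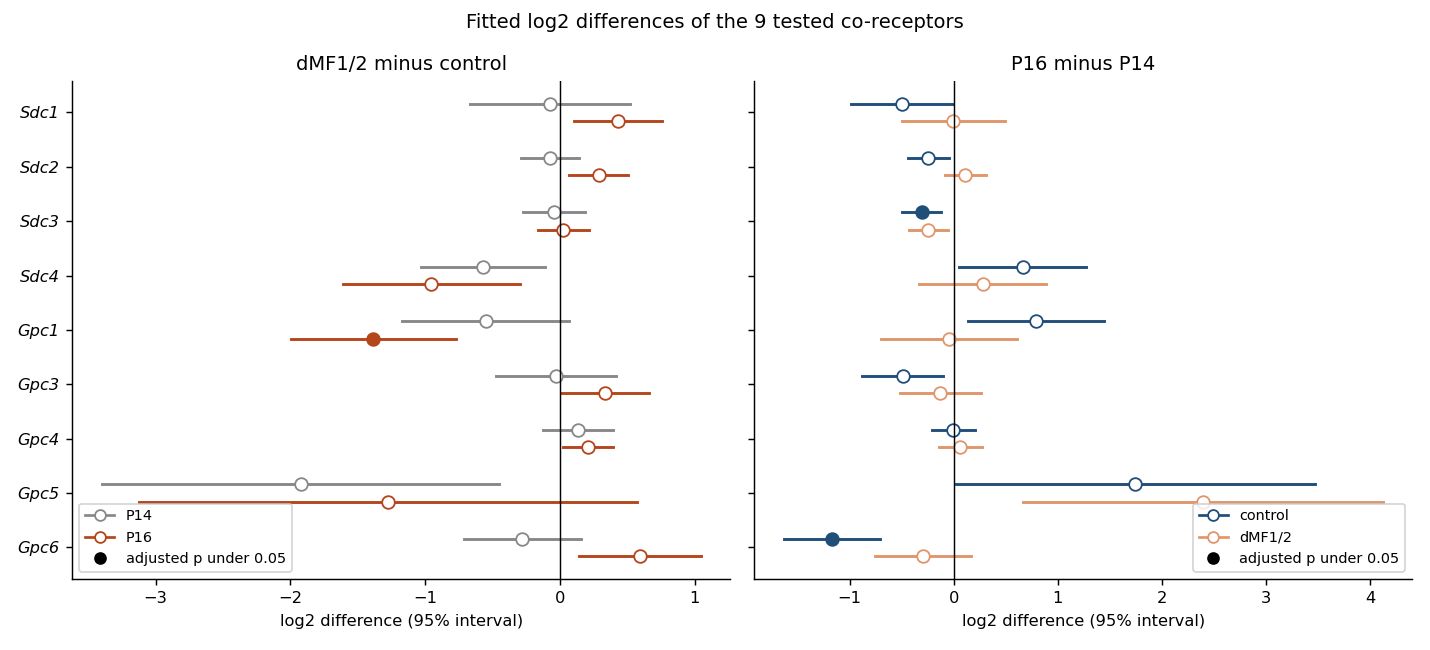
Fitted log2 differences (horizontal axis) of the 9 tested co-receptors with 95% intervals from limma, dMF1/2 minus control on the left and P16 minus P14 on the right, with filled points for an adjusted p under 0.05. Gpc1 at P16 (-1.39) and Sdc3 (-0.31) and Gpc6 (-1.17) between days in control are filled.

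At P14 no co-receptor passed the test between control and dMF1/2 mice. The count was 0 of 9 tested members, where 0.0525% of all 13334 tested genes were (0.0150% higher and 0.0375% lower in dMF1/2, that is 7 genes by limma, with 976 at an unadjusted p under 0.05, and 207 by DESeq2, which called 0 members too). With the block 224 genes and 0 members were called. Sdc4 was at 5891, 4406 and 6790 normalised reads in control and 4664, 3344 and 3437 in dMF1/2 libraries. Its ranges overlapped slightly, and the log2 difference was -0.57 (SE 0.20, limma's adjusted p = 0.549). Gpc1 was at 1979, 1043 and 1847 in control and 1342, 998 and 909 in dMF1/2 libraries, a log2 difference of -0.55 (SE 0.26, adjusted p = 0.757).

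Gpc5 was the single member whose P14 groups did not overlap, where 12.7% of all tested genes did not (6.33% higher and 6.32% lower in dMF1/2). It had 10, 22 and 17 reads in control and 6, 1 and 5 reads in dMF1/2 libraries. In the fit the log2 difference was -1.92 (SE 0.63, adjusted p = 0.511), and the gene passed the filter on low values at P14 only through its control libraries. The other tested members had log2 differences between -0.28 (Gpc6, SE 0.18) and 0.13 (Gpc4, SE 0.11) at P14. Without both replicate 1 libraries of P14 there were again 0 members called, with log2 differences of -0.69 for Sdc4, -0.54 for Gpc1 and -2.50 for Gpc5. The other 6 were then at -0.36 for Gpc6, -0.18 for Sdc1, -0.06 for Sdc2, 0.01 for Sdc3, 0.03 for Gpc3 and 0.01 for Gpc4.

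Differences within pairs of libraries with the same number, which deviated together within a day, had the same sign in 3 of 3 pairs on at least 1 day for 8 of the 9 tested members, where this held for 64.4% of the 13173 genes tested on both days, and Sdc3 was of mixed sign on both days, as were 35.6% of genes. Sdc4, Gpc1 and Gpc5 were lower in dMF1/2 in 3 of 3 pairs on each day, a pattern of 7.29% of all genes, though for Gpc5 the filter at P14 had already selected for high control values. The pairs had Gpc1 at log2 -0.56, -0.06 and -1.02 at P14 and -1.52, -1.55 and -1.08 at P16. Sdc2 and Gpc6 were lower in 3 of 3 pairs at P14 and higher in 3 of 3 at P16, as were 1.4% of all genes. For Gpc6 the pairs were at log2 -0.11, -0.58 and -0.14 at P14 and 0.59, 0.29 and 0.91 at P16. Sdc1, Gpc3 and Gpc4 were higher in 3 of 3 pairs at P16 and of mixed sign at P14, as were 14.4% of all genes. The test of genotype by day called no member and 0% of 13424 genes (0 by limma and edgeR, 7 by DESeq2, 649 at an unadjusted p under 0.05 in limma). In that limma fit the log2 estimate was 0.87 (SE 0.30) for Gpc6, 0.36 (SE 0.13) for Sdc2 and -0.84 (SE 0.42) for Gpc1, with unadjusted p of 0.0137, 0.0161 and 0.0709 and an adjusted p of 1 for each. Without both P14 replicate 1 libraries these estimates were 0.95, 0.35 and -0.84, with limma's adjusted p of 0.755, 0.755 and 0.839.

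**Figure D3:**
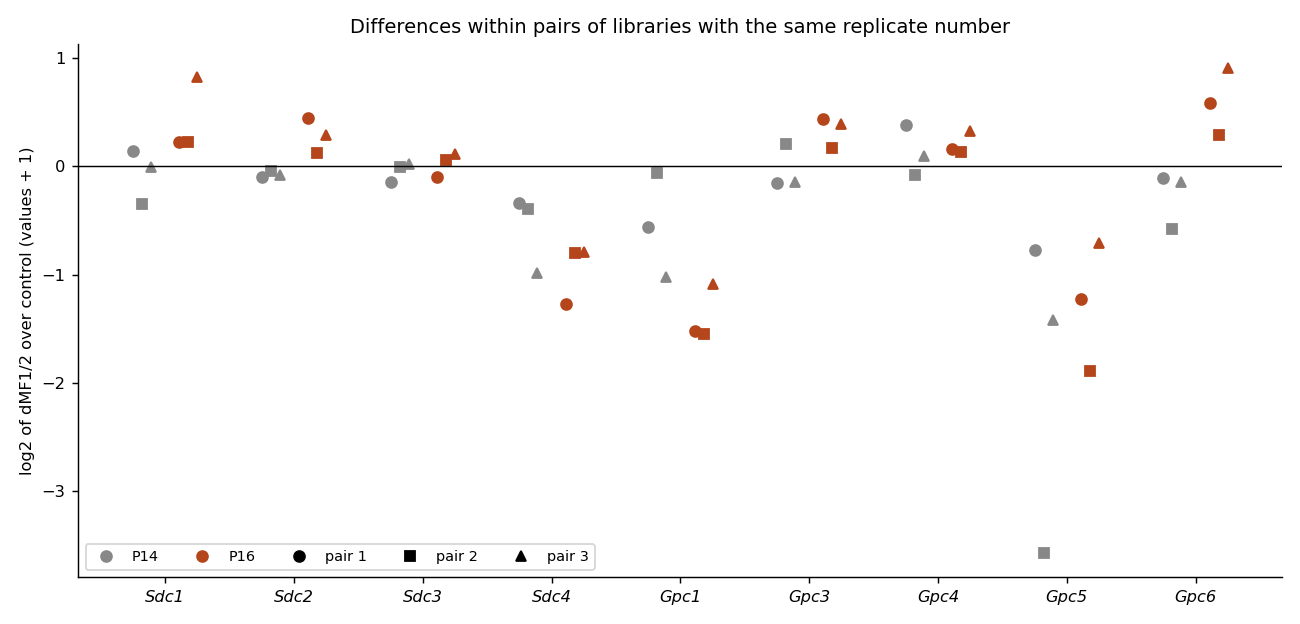
Log2 of dMF1/2 over control (normalised reads plus 1, vertical axis) in each pair of same-numbered libraries, for P14 in grey and P16 in red. Sdc4, Gpc1 and Gpc5 lie below 0 in all 6 pairs, and Sdc2 and Gpc6 lie below 0 at P14 and above 0 at P16.

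Gpc6 and Sdc3 fell between P14 and P16 in control mice. They were the 2 of 9 members that limma called, where 14.5% of the 13424 genes tested were called (6.26% higher and 8.28% lower at P16). Gpc6 was at 4307, 4068 and 3140 rescaled reads at P14 and at 1367, 2021 and 1763 at P16 in control libraries. The days did not overlap, with means of 3838 ± 616 and 1717 ± 329, a ratio of 0.447. On the log2 scale the change was -1.17 (SE 0.21), with limma's adjusted p = 0.00682, and Gpc6 was called in 22 of 22 alternatives, with the log2 change between -1.30 and -1.01. Without both P14 replicate 1 libraries it was -1.08 (adjusted p = 0.0198). In dMF1/2 mice Gpc6 differed by -0.30 between the days (SE 0.21, limma's adjusted p = 0.444), and by -0.12 without these libraries (0.764).

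The change of Sdc3 in control mice was smaller and less steady. Sdc3 was at 1619, 1748 and 1523 rescaled reads at P14 and 1383, 1340 and 1229 at P16, so the days did not overlap. The log2 change was -0.31 (SE 0.09, limma's adjusted p = 0.0364). The call was lost without either of P14 control replicates 1 (adjusted p = 0.0912) and 2 (0.113), without any of P16 control replicates 1 (0.0704), 2 (0.0621) and 3 (0.117), without P14 dMF1/2 replicate 3 (0.0530), and in the fit of only the groups compared (0.0790). Without both P14 replicate 1 libraries the log2 change was -0.31 (adjusted p = 0.0756). In dMF1/2 mice Sdc3 differed by -0.25 on the log2 scale (SE 0.09, adjusted p = 0.115, and -0.30 with 0.0892 without both P14 replicate 1 libraries), also with no overlap of the days.

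Other members had differences between days in control mice that limma did not call, of which DESeq2 called Gpc1 (adjusted p = 0.0464), Gpc3 (0.0476) and Gpc5 (0.0350). Gpc1 was at 2018, 1065 and 1884 rescaled reads at P14 and 3890, 2172 and 2490 at P16, a log2 change of 0.79 (SE 0.30, adjusted p = 0.0946). Its days did not overlap in control, whereas in dMF1/2 mice its means were 1103 ± 236 at P14 and 1084 ± 312 at P16, a log2 change of -0.05 (SE 0.30, adjusted p = 0.947). Sdc4 differed by 0.66 on the log2 scale in control (SE 0.28, adjusted p = 0.127) and by 0.28 in dMF1/2 mice (SE 0.28, adjusted p = 0.610). Sdc4 reached the threshold in control without P16 control replicate 2 (adjusted p = 0.0466), as did Sdc2 (0.0386), whereas without P16 control replicate 1 the log2 change of Sdc4 was 0.35 (0.406). Gpc1 was at 0.50 without P14 control replicate 2 (adjusted p = 0.269). Sdc1, Sdc2 and Gpc3 had log2 changes of -0.50 (SE 0.22), -0.24 (SE 0.09) and -0.49 (SE 0.18) in control mice and of 0.00, 0.11 and -0.13 in dMF1/2 mice, with adjusted p between 0.0846 and 0.151 in control.

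Without both P14 replicate 1 libraries, the log2 changes in control were 0.96 for Gpc1, 0.70 for Sdc4, -0.34 for Sdc1, -0.20 for Sdc2, -0.31 for Gpc3 and 1.41 for Gpc5, with limma's adjusted p between 0.0886 and 0.345. Gpc3 was at -0.31 also without P14 control replicate 1 alone (adjusted p = 0.276). In dMF1/2 mice they were 0.12 for Gpc1, 0.43 for Sdc4, 0.26 for Sdc1, 0.15 for Sdc2, -0.01 for Gpc3 and 2.63 for Gpc5, with adjusted p between 0.104 and 0.974. None of these members passed the threshold in either genotype.

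Gpc5 had the widest range of group means. The control libraries held 9.50, 24.1 and 16.9 rescaled reads of it on P14, and 137, 26.7 and 45.4 on P16. The dMF1/2 libraries held 5.15, 1.08 and 5.65 on P14, and 57.4, 6.47 and 27.2 on P16. Both genotypes had higher values at P16 with no overlap of the days. The gaps were narrow, from 22 to 26 reads in control and from 6 to 7 reads in dMF1/2 libraries. The P14 dMF1/2 mean was 3.96 rescaled reads, so Gpc5 passed the filter of 10 only through groups with higher values. The log2 change was 1.74 in control (SE 0.79, adjusted p = 0.153) and 2.39 in dMF1/2 mice (SE 0.79, adjusted p = 0.0975). DESeq2 called it in both (adjusted p = 0.0350 and 0.010), and limma called it in dMF1/2 mice without P16 dMF1/2 replicate 2 (0.0365). Without P16 control replicate 1 the log2 change in control was 1.10 (adjusted p = 0.439). In dMF1/2 mice 0 of 9 members were called by limma, where 5.75% of all genes tested were (1.81% higher and 3.94% lower at P16), and 2 members (22.2%) had an unadjusted p under 0.05, as did 22.8% of all genes. In control it was 8 of 9 members against 31.9% of all genes, and for the genotypes at P16 7 of 9 against 19.0%. Of the 9 members, 6 did not overlap between days in control, where 36.0% of all genes tested did not (17.5% higher and 18.4% lower at P16). In dMF1/2 mice 2 members did not overlap, Sdc3 and Gpc5, where 27.6% of genes did not (13.2% higher and 14.4% lower). Gpc5 was also among the 6 in control, and its few reads limit both counts. The control and dMF1/2 changes, and the genotype differences on each day, share libraries and are not independent of each other.

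Within each family the same reads per kb give the share of each member. Sdc4 made up 59.3% ± 10.2 of the syndecan reads per kb in P16 control and 38.1% ± 4.94 in P16 dMF1/2 libraries, against 42.5% ± 5.78 and 34.1% ± 1.08 in P14 control and dMF1/2. Gpc1 made up 11.5% ± 4.37 of the glypican reads per kb in P16 control, 3.84% ± 1.29 in P16 dMF1/2, 5.18% ± 1.23 in P14 control and 3.59% ± 0.30 in P14 dMF1/2 libraries. Gpc3 remained the largest glypican share in every library, from 51.3% to 70.0%. The glypican sum over the syndecan sum was 0.828 ± 0.246 in P16 control and 1.16 ± 0.185 in P16 dMF1/2 libraries, and 1.15 ± 0.087 and 1.33 ± 0.066 at P14. The lowest single library was P16 control replicate 1, at 0.587. These shares follow from the same reads as the member values and were not tested.

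**Figure D4:**
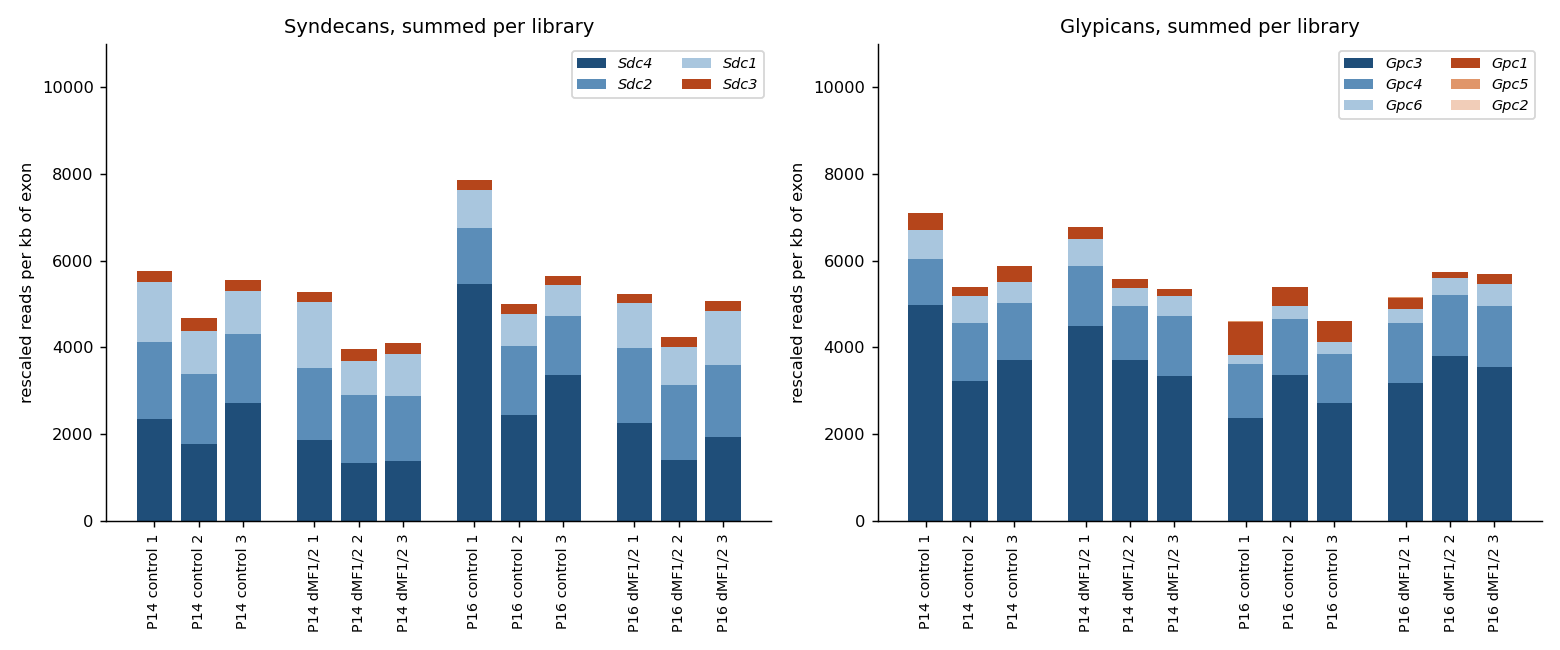
Rescaled reads per kilobase of exon (vertical axis, from 0) of the syndecans (left) and glypicans (right), stacked by gene in each of the 12 libraries. Sdc4 took 59.3% of the syndecan sum on average in P16 control and 38.1% in P16 dMF1/2 libraries, and Gpc1 took 11.5% and 3.84% of the glypican sum.

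Sdc4 and Gpc1 varied together over the 12 libraries, with a Pearson r of 0.953 for log2 rescaled reads (Spearman rho 0.930). The r was 0.902 without P16 control replicates 1 and 3, the libraries farthest from the median of Sdc4, and 0.920 for deviations from the 4 group means. For Sdc4 and Gpc5 r was 0.820 (rho 0.748), 0.669 without the same libraries and 0.693 for the deviations. Gpc3 and Gpc6 had an r of 0.817 (rho 0.657) and Gpc3 and Sdc2 of 0.804 (rho 0.636). Without P14 control replicate 1 and P16 control replicate 1, the farthest for Gpc3, these were 0.622 and 0.573, and for the deviations 0.627 and 0.826. Gpc1 and Gpc5 had an r of 0.672, which was 0.460 without their 2 farthest libraries, and Sdc4 and Sdc2 one of -0.626, which was 0.285 without P16 control replicates 1 and 3. The points share libraries, depth and scaling, so these values only describe the 12 libraries. Among 10249 genes with a mean of at least 100 rescaled reads, the genes most like Gpc1 were Vdr (r = 0.974), Cdc14a (0.970) and Cfap43 (0.969). Those most like Sdc4 were Tnfaip2 (0.981), Gcnt2 (0.973) and Maml3 (0.970), and those most like Gpc5 were Zbtb1 (0.951), Slc2a13 (0.922) and Ttc39b (0.919).

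The enzymes that build and modify the heparan sulfate chains of these proteoglycans were read against the share of all genes called at P16, which was 4.32% by limma, 8.33% by DESeq2 and 10.4% with the block. These shares also apply to the P16 counts of the lists that follow. Of 18 chain synthesis genes tested, limma called 0, DESeq2 2 and the block 2, and 6 had an unadjusted p under 0.05 in limma, as did 19.0% of all genes. The list had a median log2 difference of 0.06 beside -0.0043 over all genes. Ext1, a subunit of the polymerase, differed by -0.09 (SE 0.09, adjusted p = 0.686) on the log2 scale. Of 14 tested chain modification genes, limma called 1, higher in dMF1/2, and DESeq2 called 5 (3 higher and 2 lower), with a list median of 0.16. The gene called by limma was Hs3st3a1, a 3-O-sulfotransferase, at 75.4, 157 and 122 rescaled reads in control and 352, 333 and 466 in dMF1/2 libraries. These did not overlap, with a log2 difference of 1.74 (SE 0.26, limma's adjusted p = 0.0125), which lost its call without dMF1/2 replicate 3 (0.0604). With the block 5 genes of this list were called, Hs3st3a1, Sulf1, Hs3st3b1 and Hs6st2 higher and Ndst3 lower in dMF1/2. Sulf1, an extracellular enzyme that removes 6-O-sulfates which FGF signaling needs, was at 983, 1663 and 1314 rescaled reads in control and 1646, 3193 and 2740 in dMF1/2 libraries, a log2 difference of 0.92 (SE 0.26, adjusted p = 0.0987).

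Of 15 tested genes for shedding and release, limma called 1 at P16, where it called 4.32% of all genes, while DESeq2 and the block called 5 each. Gpld1, a phospholipase D that cuts the anchor of glypicans and other proteins, was at 164, 212 and 183 rescaled reads in control and 271, 287 and 270 in dMF1/2 libraries. Its log2 difference was 0.58 (SE 0.13, adjusted p = 0.0433), and the call held only without control replicate 2 (0.0286) among the 6 fits that leave out a P16 library, with adjusted p of 0.111 to 0.134 in the other 5. Notum, a secreted enzyme that inactivates Wnt ligands and was first linked to glypican release, was at 8979, 8057 and 10457 rescaled reads in control and 5065, 1651 and 3666 in dMF1/2 libraries. Its groups did not overlap, with a log2 difference of -1.53 (SE 0.36, limma's adjusted p = 0.0536), and it was called with the block and by DESeq2. Of the fits that leave out a P16 library, only those without dMF1/2 replicate 1 or 2 called Notum. The list median was 0.0048.

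Among 13 tested cytoplasmic partners of syndecans, limma called 1 at P16 (3 by DESeq2 and 3 with the block, where these called 4.32%, 8.33% and 10.4% of all genes), and the list median was -0.11. Trpc4, a calcium channel of the TRPC family, was at 796, 308 and 410 rescaled reads in control and 47.8, 6.47 and 10.5 in dMF1/2 libraries. Its log2 difference was -4.85 (SE 0.66, adjusted p = 0.0094), a size that rests on few reads in the dMF1/2 libraries. Where at least 10 reads were required in every library, Trpc4 was not tested and 0 genes of this list were called. At P14 Trpc4 was at 67.4, 13.1 and 282 rescaled reads in control and 2.57, 1.08 and 4.52 in dMF1/2 libraries, so it passed the filter on low values only through the control libraries (limma's adjusted p = 0.317). DESeq2 and the block called it lower at P14, under the same limit. Among 10 other heparan sulfate proteoglycans, limma called 2 at P16 (3 by DESeq2 and 2 with the block). Spock1, a secreted testican, was at 204, 138 and 140 rescaled reads in control and 593, 412 and 680 in dMF1/2 libraries, a log2 difference of 1.80 (SE 0.22, adjusted p = 0.00644). Agrn, the basement membrane proteoglycan agrin, was at 5262, 5056 and 4785 in control and 3107, 2785 and 3762 in dMF1/2 libraries, a log2 difference of -0.65 (SE 0.12, adjusted p = 0.0242), which lost its call in the fit of all 12 libraries (0.0572) and without control replicates 1 (0.0591) or 3 (0.0706) or dMF1/2 replicates 1 (0.0782) or 2 (0.0561). Hspg2, the basement membrane proteoglycan perlecan, differed by -0.05 (SE 0.11, adjusted p = 0.864).

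Of 21 genes of the FGF receptor complex and its feedback tested at P16, limma called 4, all lower in dMF1/2, where it called 2.14% of all genes lower. The list median was -0.13, and DESeq2 and the block each called 8, of which 7 were lower and 1 was higher (Flrt1 by DESeq2, Flrt3 with the block). The 4 genes called by limma were the ETS factors Etv4 (log2 difference -2.41, SE 0.17), Etv1 (-1.69, SE 0.15) and Etv5 (-0.99, SE 0.13), which FGF signaling induces, and the ERK phosphatase Dusp6 (-0.996, SE 0.15), with limma's adjusted p of 0.00154, 0.00329, 0.00841 and 0.0125, and Dusp6 lost its call without control replicate 3 (0.0574). Etv4 was at 275, 195 and 216 rescaled reads in control and 41.5, 40.6 and 42.9 in dMF1/2 libraries at P16. At P14, 0 genes of these 6 lists were called by limma, while DESeq2 called 8 of their 90 tested genes and the block 9, where these called 1.55% and 1.68% of all genes. Both called Etv1 (adjusted p = 0.00879 with the block) and Etv5 (0.00176). DESeq2 and the block also both called Sulf1 and Spock1 higher and Notum and Trpc4 lower in dMF1/2. Of these, Trpc4 passed the P14 filter only through its control libraries. Limma called Etv5 in the fit of all 12 libraries, Spock1 without P14 control replicate 2 and Spry4 without both P14 replicate 1 libraries. Between days in control mice, where limma called 14.5% of all genes, the called genes were 1 of 18 for chain synthesis, 3 of 14 for modification, 3 of 15 for shedding, 3 of 13 for partners, 3 of 10 for other proteoglycans and 5 of 20 for the FGF complex.

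**Figure D5:**
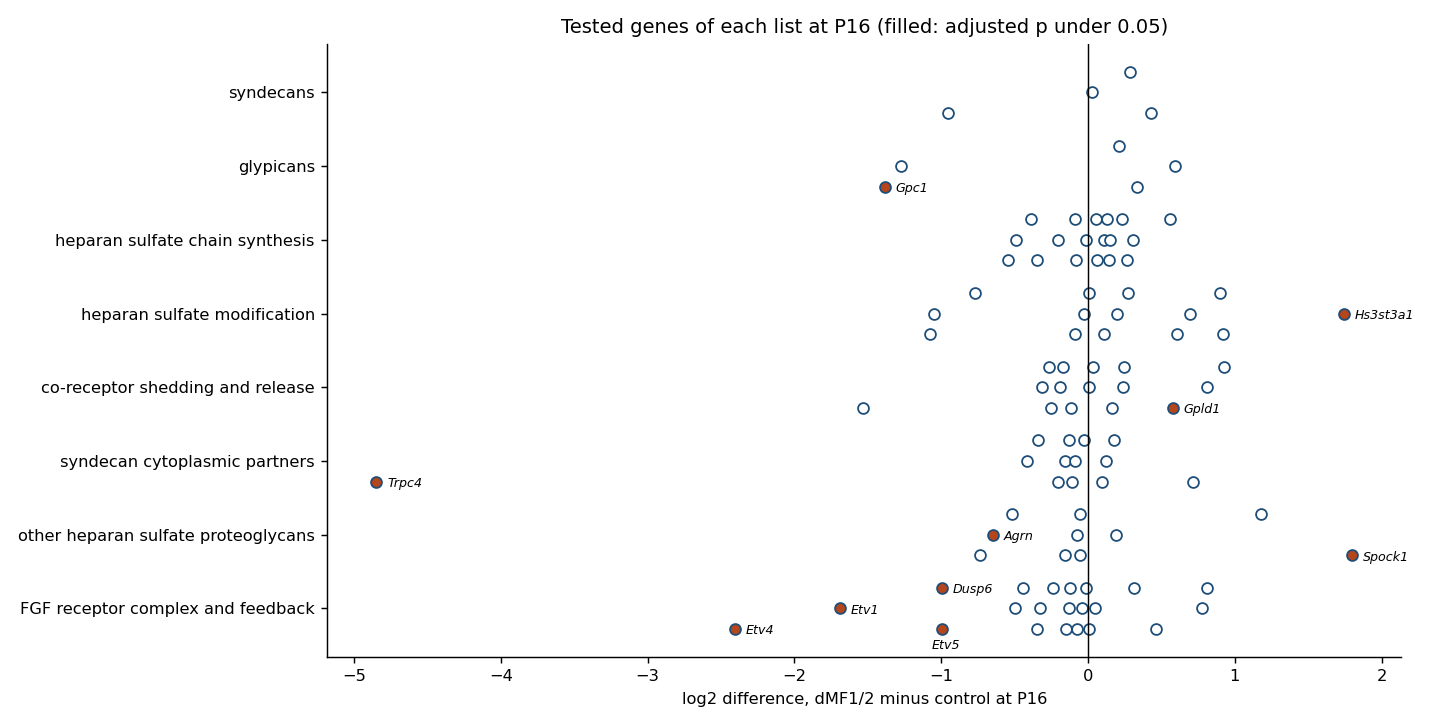
Log2 difference of dMF1/2 minus control at P16 (horizontal axis) of every tested gene in the co-receptor and heparan sulfate lists, 1 row a list, with filled and named points for an adjusted p under 0.05 and points spread vertically within a row only for legibility. Gpc1 is the single filled co-receptor, at -1.39, and chain synthesis has no filled point.

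Markers of other cell types were read beside these results, against the same shares of all genes called at P16 (4.32% by limma, 8.33% by DESeq2 and 10.4% with the block). At P16, 8 of 9 endothelial markers were lower in dMF1/2 (median log2 -0.83, 0 called by limma, 4 at an unadjusted p under 0.05, 2 with the block and 4 by DESeq2), with summed levels of 906 to 1898 rescaled reads in control and 965 to 1283 in dMF1/2 libraries. Without P16 control replicate 1, limma called 4 of the 9, all lower, where it called 2.96% of all genes. The 11 genes of dissociation stress were lower in 11 of 11 cases (median -0.38), of which limma called 1, Atf3, DESeq2 2 (Atf3, Jun) and the block 4 (Atf3, Jun, Nr4a1, Ier2), with sums of 374151 to 529546 in control and 333210 to 357821 in dMF1/2 libraries. Keratinocyte markers had 0 of 9 called (0 at an unadjusted p under 0.05) and sums of 332 to 945 in control and 589 to 815 in dMF1/2 libraries, and immune markers had 0 of 3 called (0 unadjusted) and sums of 254 to 431 and 221 to 355. Dermal fibroblast and sheath, melanocyte and skeletal muscle markers had 0 of 12, 0 of 4 and 0 of 4 called by limma (0 unadjusted in each), although the block called 1 fibroblast marker lower (Dpt). Of 3 adipocyte markers limma called Plin1 higher, and DESeq2 and the block also called Fabp4 lower. Of 16 dermal papilla markers, limma called 6 higher and 1 lower in dMF1/2 (median 1.04), DESeq2 10 and 2, and the block 11 and 2. Limma called 2 of the 16 without P16 dMF1/2 replicate 3 and 3 without P16 control replicate 3, all higher. Those fits called 1.11% and 1.37% of all genes. Between P14 and P16 in control, where limma called 14.5% of all genes, 8 of these 16 were called, all lower (median -0.99), 3 stress genes were called higher, and of 9 endothelial markers 3 were called higher and 1 lower (median 1.42). The part of any of these lists in the differences of Gpc1, Sdc4 and Gpc6 was not tested. In sorted bulk RNA, fewer cells of a type and less RNA per cell cannot be told apart.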

How the data were processed

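RNA of FACS-sorted, YFP-positive DP cells was depleted of ribosomal RNA, made into directional libraries and sequenced as 61-base single reads. Trimming was done by the authors with Trimmomatic, alignment to mm10 with TopHat version 2 and counting per Ensembl gene (GRCm38.p4) with HTSeq-count, whose strand setting is not given in the sources used here. The deposited signal values are the authors' reads divided by DESeq2 size factors, in 1 table per day, beside the authors' own DESeq2 comparisons, which were not used. Every value was a whole multiple of 1 constant per library (100% within 0.01), so reads were recovered. Other days were not analysed here.

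Within each day, limma 3.58.1 (R 4.3.3, mean-variance trend) compared the genotypes on log2(value + 1) where a gene averaged 10 or more. Fold changes on this scale understate those of low genes. P-values were adjusted by Benjamini-Hochberg over all tested genes, with a threshold of 0.05. Days and the interaction were fitted on the reads of 14986 shared genes, rescaled over 12 libraries by median of ratios, in 1 model with 4 groups. Alternatives were TMM, edgeR 4.0.16 quasi-likelihood, DESeq2 1.42.0, pseudocounts of 0.1 and 10, other filters, a replicate block, other sets of libraries and leaving out each library. Chosen after seeing the data were the fit without both P14 replicate 1 libraries and edgeR with the block. The code was tested on simulated data.

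Within a day, deviations of same-numbered libraries from their group means correlated over genes with r of 0.573, 0.377 and 0.289 at P14 and 0.266, 0.283 and 0.319 at P16, so the numbers were taken as pairs within a day, while across days r ran from -0.161 to 0.208 and they were not.

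The members and gene lists were chosen with earlier results of these data known, and the dissociation stress list was added later. Named were all 10 members, the called genes of the pathway lists (at most 5 a list), Fgfr1, Fgfr2, and for the 3 members of widest range the 3 genes of highest r; Ext1, Sulf1, Notum, Hspg2 and the genes named for the block or DESeq2, genes overlapping members, and marker genes were named after their values were seen.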

Additional observations from a re-analysis of the deposited data

Results flagged for a closer look

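Sdc2 and Gpc6 are listed because the genotype difference had opposite signs on the 2 days in every pair of same-numbered libraries, lower in dMF1/2 in 3 of 3 pairs at P14 and higher in 3 of 3 pairs at P16. Opposite signs of this kind, in either order, were seen in 2.82% of the 13173 genes tested on both days. The P14 pairs of Sdc2 were close to 0, at log2 -0.10, -0.04 and -0.08. The difference between the days was 0.356 on the log2 scale for Sdc2 (limma's unadjusted p = 0.0161) and 0.868 for Gpc6 (unadjusted p = 0.0137). Both had an adjusted p of 1 over all genes, and their lowest adjusted p over 21 alternatives was 0.305 for Sdc2 and 0.301 for Gpc6.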

How the results depend on the processing

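For P16 genotypes, 3 members were called by DESeq2, 5 with the replicate block and 4 by edgeR with the block, against 1 by limma, and 0 to 2 when a library was left out. For days in control, 5 were called by DESeq2, 1 in the fit of only the groups compared, 1 without both P14 replicate 1 libraries, and 1 to 3 when a library was left out, against 2. For days in dMF1/2 mice, 1 was called by DESeq2 and 0 to 1 when a library was left out, against 0. At P14 and for the interaction 0 members were called in every alternative that was run. Over all genes, the P14 calls numbered 7 by limma, 207 by DESeq2, 224 with the block, 245 by edgeR with the block, 11 in the fit of all 12 libraries and 0 to 18 when a library was left out. The P16 calls were 582, and 1121 by DESeq2, 1403 with the block, 1439 by edgeR with the block and 149 to 684 when a library was left out. In control between days, 1951 genes were called, and 2568 by DESeq2, 789 in the fit of only the groups compared, 950 without both P14 replicate 1 libraries and 693 to 2128 when a library was left out. In dMF1/2 mice between days, 772 genes were called, and 1330 by DESeq2, 330 in the fit of only the groups compared and 257 to 861 when a library was left out. The interaction called 0 genes, 7 by DESeq2, 2 with the block and 0 to 2 when a library was left out. Of 875 member values recomputed, 847 kept their side of the threshold, 17 gained and 11 lost a call, no called value changed sign, and 22 values changed sign with no call in either fit. The block changed no other member's call. Low read numbers limit Gpc2 (3 to 15 reads per library) and Gpc5 (1 to 22 reads at P14), whose differences at P14 rest on few reads.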
